A study of Mus musculus with 51 samples.

Results

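Nr3c1, Sox11 and Nfe2l1 are 3 transcription factor genes whose probes gave some of the most negative log2 ratios on spotted 2-colour arrays of a spike-in series. They are 3 of the 4200 genes that the platform names with 1 symbol per probe. They were found by the symbol listed for each spot: 10 of 16896 spots carried one of the symbols, which form 5 of 7920 probes, each printed as a pair of spots. Nr3c1 and Sox11 had 2 probes each and Nfe2l1 had 1. The genes were selected on their measured differences between 2 and 0 pmol, with Nr3c1 also selected on its value at 1 pmol. The arrays of 0, 1 and 2 pmol are therefore described without a test for these genes. The tests below use the 39 arrays of 0.025 to 0.75 pmol, which did not choose them.

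The 51 arrays measured RNA of CRL1606, a mouse hybridoma made by fusing BALB/c spleen cells with the myeloma line P3-X63-Ag8, which secretes an antibody to fibronectin and was grown in shake flasks in serum-free medium. Both channels of every array held this same RNA, and 100 genes were spiked into channel 1 and another 100 genes into channel 2, at one amount per gene. There were 6 arrays each at 0, 0.05, 0.1, 0.25, 0.5 and 0.75 pmol and 3 arrays each at 0.025, 0.15, 0.2, 1 and 2 pmol, and at 0 pmol the hybridoma RNA was hybridised against itself with no spike. All groups thus share 1 cell line, and the labels do not state whether replicates are separate cultures, so a p-value reflects the variation among these arrays, which could be technical. The channel in the numerator and the names of the spiked genes are not given in the sources used here, so a ratio is called positive or negative only. Such a ratio shows no expression level, and the identity of the cells could not be checked on marker genes.

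Nr3c1 encodes the glucocorticoid receptor, a nuclear receptor that Hsp90 chaperones hold ready in the cytoplasm and that enters the nucleus on binding hormone, and glucocorticoids kill many lymphoid cells through it. Sox11 is an HMG-box factor of the SoxC group, active in developing neurons and known in B-lineage cells mainly from mantle cell lymphoma. Nfe2l1 (also called Nrf1) is a cap'n'collar bZIP factor that is anchored in the endoplasmic reticulum, pairs with small Maf proteins and raises proteasome subunit genes when the proteasome is short. In a hybridisation of one RNA against itself a gene's log2 ratio should lie near 0, and RNA added to one channel alone moves it away from 0 towards that channel.

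The arrays measured from 8370 to 16862 of the 16896 spots, and their number limits the precision of every value. The 3 arrays at 1 pmol missed 13.5%, 50.5% and 30.5% of their spots, and replicate 2 of that amount gave no value for the Nr3c1 and Sox11 probes. Across all probes, paired spots agreed least on 0.75 pmol replicate 4, where their correlation was 0.198. In the 0.05 pmol group, replicates 4, 5 and 6 stood at 0.497, 0.455 and 0.691. The corresponding arrays of 0.1 pmol stood at 0.402, 0.455 and 0.52. Each array was centred on its own median, and all values below are centred log2 ratios.

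The glucocorticoid receptor gene was printed at first spots 12586 (block 36) and 10663 (block 31), and both probes carry the same sequence accession. The sequences of the printed probes were not available here, so whether the 2 probes cover the same stretch of the gene is not known. The same holds for every other sequence accession with 2 or more probes. Without spike, the probe at spot 12586 read -0.10, -0.54, 0.27, 0.44, 0.58 and 0.53 on replicates 1 to 6. At 2 pmol it read -7.17, -6.79 and -6.22, and at 1 pmol the 2 measured arrays read -6.66 and -7.55. All 5 of these spiked arrays lay far below the unspiked ones, and the groups did not overlap. The difference at 2 pmol was -6.93 (SE 0.61), the 5th lowest of 7917 probes, and that at 1 pmol was -7.30 (SE 0.70), the lowest of 6030. These differences chose the gene and support nothing further.

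The same probe was already low at the smallest amount. At 0.025 pmol its values were -2.29, -4.74 and -4.10. At 0.15 pmol they were -5.41, -4.23 and -4.49, and at 0.2 pmol they were -4.51, -3.34 and -4.80. Every one of these 9 arrays lay below every unspiked array. In the groups of 6, the lowest, median and highest values were -5.00, -4.33 and -2.69 at 0.05 pmol and -4.37, -3.35 and -2.46 at 0.1 pmol. The corresponding values were -6.45, -4.30 and -3.80 at 0.25 pmol and -5.99, -5.38 and -4.32 at 0.5 pmol. At 0.75 pmol they were -5.55, -4.38 and -1.22, where the high value came from replicate 4 alone. Over all amounts, 44 of 44 spiked arrays lay below 0 and below every array at 0 pmol. From 0.025 to 0.75 pmol, 39 of 39 did so. The arrays of 0, 1 and 2 pmol took part in choosing this gene. Such counts, here and below, are descriptions, and the share of all probes that reach them is not given. In the order of the group means, neighbouring amounts overlapped except in 2 places. The mean of -6.73 ± 0.48 (SD, n = 3) at 2 pmol lay apart from that of 0.5 pmol, which was -5.32 ± 0.63 (SD, n = 6). That of 0.1 pmol was -3.37 ± 0.85 (SD, n = 6) and lay apart from the unspiked mean of 0.20 ± 0.44 (SD, n = 6).

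The second probe of the receptor, at spot 10663, lay higher. Unspiked, it lay between -0.58 and -0.12, with -0.38 as the median. At 2 pmol it read -0.92, -0.69 and -1.21, and at 1 pmol -0.64 and -1.55. These arrays lay below the unspiked ones, but by a small part of the distance seen for the other probe. The difference at 2 pmol was -0.57 (SE 0.39). Centring removed a shift of 1.37 between the array medians of 2 and 0 pmol. That shift is larger than the difference of this probe, so the sign of the difference depends on centring. The mean per amount from 0.025 to 0.75 pmol was lowest at 0.1 pmol, with -1.12 ± 1.10 (SD, n = 6), and highest for the 3 arrays of 0.15 pmol, with 0.19 ± 0.22 (SD). All neighbours in the order of its amounts overlapped. Of 44 spiked arrays, 29 lay below 0 and 17 below every unspiked array.

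Sox11 was printed at first spots 9342 (block 27) and 8336 (block 24), again with the same sequence accession for both. At spot 9342 the unspiked arrays fell into 2 ranges: replicates 1 to 3 read 0.35, 0.16 and 0.55, and replicates 4 to 6 read -1.38, -1.60 and -1.97. At 2 pmol the values were -7.00, -7.24 and -7.07, and at 1 pmol they were -7.33 and -7.41. The spiked arrays were close together and below both ranges. The difference at 2 pmol was -6.45 (SE 0.76), the 10th lowest, and it was -7.46 from the mean of unspiked replicates 1 to 3 and -5.45 from that of replicates 4 to 6. At 1 pmol the difference was -6.72 (SE 0.88), the 6th lowest.

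At the lower amounts, the Sox11 probe at spot 9342 varied more between arrays. Its values were -2.90, -5.57 and -3.13 at 0.025 pmol and -3.20, -2.52 and -4.80 at 0.2 pmol. The arrays of 0.15 pmol lay closer together, at -4.16, -4.75 and -4.65. Each of these arrays still lay below every unspiked array. The lowest, median and highest values were -6.33, -4.94 and -2.08 at 0.05 pmol, and -5.37, -5.09 and -4.13 at 0.1 pmol. They were -6.64, -6.10 and -3.19 at 0.25 pmol and -7.13, -6.16 and -4.86 at 0.5 pmol. At 0.75 pmol they were -6.90, -6.07 and -2.07, with replicate 4 again the highest. In all, 44 of 44 spiked arrays lay below 0 and below every array at 0 pmol, with 39 of 39 from 0.025 to 0.75 pmol. Neighbours in the order of the means overlapped except 1 and 2 pmol, which lay only 0.27 apart with 2 and 3 arrays, and 0.2 and 0 pmol. The mean of 0.2 pmol was -3.51 ± 1.17 (SD, n = 3), against -0.65 ± 1.12 (SD, n = 6) without spike.

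The other Sox11 probe, at spot 8336, stayed near 0 throughout. It read 0.62, 0.16 and -0.03 at 2 pmol, against -0.18 to 0.75 with a median of 0.18 at 0 pmol. The ranges overlapped, and the difference was 0.00 (SE 0.33). From 0.025 to 0.75 pmol its group means ran only from -0.22 ± 0.09 (SD, n = 3) to 0.07 ± 0.59 (SD, n = 6). Of 44 spiked arrays 27 lay below 0, and every pair of neighbouring amounts overlapped.

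**Figure D1:**
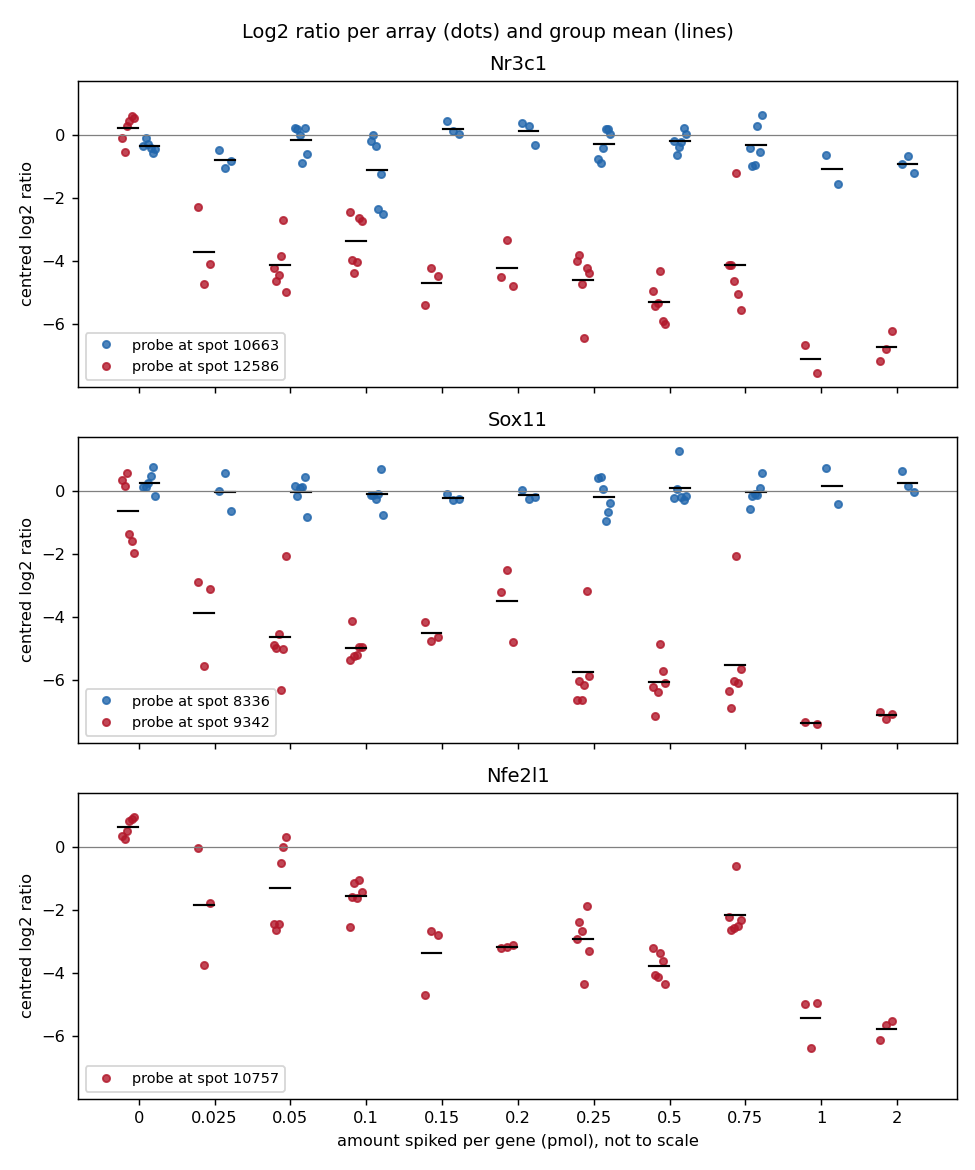
Centred log2 ratio (vertical axis) of each probe of Nr3c1, Sox11 and Nfe2l1 on every array (dots) with the group mean (line), by spiked amount in pmol (horizontal axis, not to scale). The red probes of all 3 genes lie below 0 on nearly every spiked array and reach -6.73, -7.10 and -5.77 on average at 2 pmol, while the blue probe of Sox11 averages between -0.22 and 0.25 at every amount and that of Nr3c1 between -1.12 and 0.19.

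Nfe2l1 had a single probe, at first spot 10757 in block 31, the block of the higher Nr3c1 probe. Unspiked, it read 0.35, 0.24 and 0.49 on replicates 1 to 3 and 0.80, 0.87 and 0.95 on replicates 4 to 6, all positive and in 2 ranges that did not overlap. At 2 pmol it read -6.12, -5.66 and -5.53, and at 1 pmol all 3 arrays were measured, at -4.98, -6.38 and -4.94. These arrays were far below the unspiked ones. The difference at 2 pmol was -6.39 (SE 0.58), the 11th lowest, and at 1 pmol it was -6.05 (SE 0.58), the 13th lowest. Against unspiked replicates 1 to 3 and 4 to 6 the difference at 2 pmol was -6.13 and -6.64.

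Between these ends the group means of the Nfe2l1 probe were the least negative of the 3 low probes as ratios against 0. As differences from the unspiked means they were lower than those of Sox11 at spot 9342 at 0.15 pmol and at 0.2 pmol, where they were -3.78 for Nfe2l1 and -2.86 for Sox11. It read -0.05, -3.74 and -1.78 at 0.025 pmol, so that 1 array of that amount lay close to 0. At 0.05 pmol replicates 1 to 3 had a mean of -2.52 and replicates 4 to 6 a mean of -0.07, with no overlap, and replicate 6 read 0.32, inside the unspiked range. That array was the exception among 45 spiked arrays, of which 44 lay below 0 and 44 below every unspiked array. From 0.025 to 0.75 pmol, 38 of 39 arrays did both. The arrays of 0.05 pmol replicates 4 to 6 are among those whose paired spots agreed poorly, and the part of this in the values was not tested. The lowest, median and highest values were -2.53, -1.51 and -1.05 at 0.1 pmol and -4.34, -2.80 and -1.88 at 0.25 pmol. At 0.5 pmol they were -4.34, -3.83 and -3.21, and at 0.75 pmol -2.65, -2.42 and -0.60. The 3 arrays of 0.15 pmol read -4.69, -2.66 and -2.80, and those of 0.2 pmol lay close together at -3.20, -3.17 and -3.12. Neighbours in the order of the means overlapped, except those of 1 pmol, with -5.44 ± 0.82 (SD, n = 3), and its neighbour 0.5 pmol, with -3.78 ± 0.45 (SD, n = 6).

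**Figure D2:**
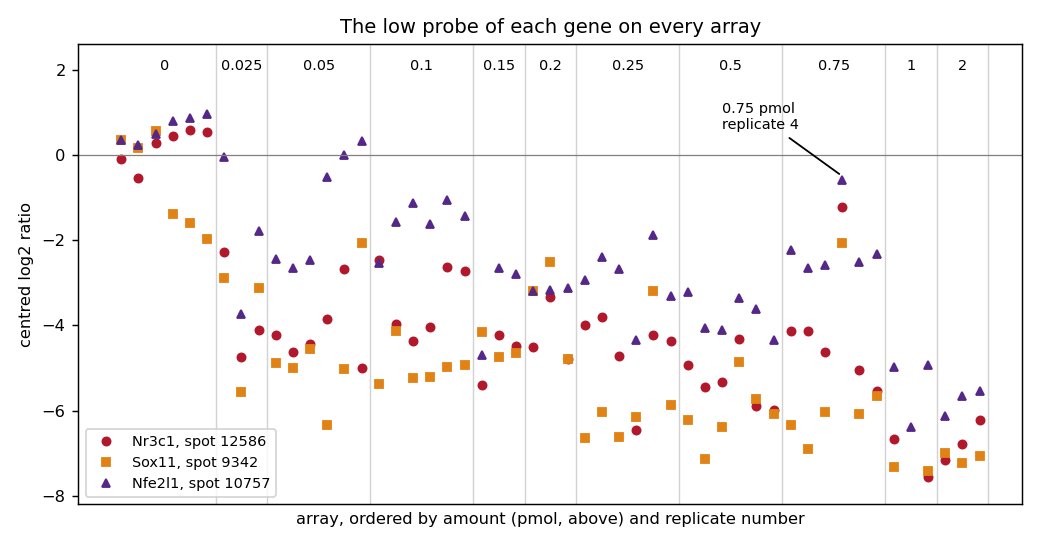
Centred log2 ratio (vertical axis) of the low probe of each gene on each of the 51 arrays, ordered by spiked amount in pmol and replicate number (horizontal axis). On 0.75 pmol replicate 4 all 3 probes lie above the rest of their group, at -1.22, -2.07 and -0.60.

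On the 39 arrays that did not choose the genes, the mean over the 8 amounts was tested against 0 with limma, across all probes and with Benjamini-Hochberg adjustment. Of 7892 probes, 32% were called negative in this test, so a negative call alone says little about a gene, and the size and rank matter more. The fit treats the 39 arrays as independent, while the array sets described below mostly followed blocks of 3 replicates. Its p-values do not allow for that. Ranks of this mean are given among all 7920 probes. The Nr3c1 probe at spot 12586 had a mean of -4.27 (SE 0.16, adjusted p = 1.03e-23), the 15th lowest, and was below 0 on 39 of 39 arrays. Sox11 at spot 9342 averaged -4.86 (SE 0.19, adjusted p = 4.96e-23), the 7th lowest, also on 39 of 39. For Nfe2l1 the mean was -2.51 (SE 0.15, adjusted p = 3.78e-17), the 64th lowest, on 38 of 39. The higher Nr3c1 probe averaged -0.32 (SE 0.10, adjusted p = 0.00606) and ranked 1529th. This probe averaged -0.37 ± 0.16 (SD, n = 6) on the unspiked arrays. Sox11 at spot 8336 averaged -0.09 (SE 0.08, adjusted p = 0.354).

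Amount by amount, limma called the low probes of all 3 genes negative at each of the 8 amounts. The share of all probes called negative was 14.4% at 0.025 pmol, 16.8% at 0.05 pmol, 5.77% at 0.1 pmol and 4.9% at 0.15 pmol. It was 2.4% at 0.2 pmol, 4.26% at 0.25 pmol, 10.5% at 0.5 pmol and 7.32% at 0.75 pmol. The weakest calls were those of Nfe2l1, with adjusted p = 0.00739 at 0.025 pmol and 0.00742 at 0.05 pmol by limma. With the array set described below as a covariate, Nfe2l1 was called at 5 of the 8 amounts. It was called at 7 with the arrays scaled to one spread, without 0.025 pmol replicate 2 or without 0.05 pmol replicate 2. The probe at spot 10663 was called at 0.1 pmol alone (mean -1.12, adjusted p = 0.00153 by limma), where replicates 1 to 3 averaged -0.20 and replicates 4 to 6 averaged -2.04 without overlap. The Sox11 probe at spot 8336 was called at 0 of the 8 amounts.

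The slope on log2 of the amount asked whether the ratios moved further from 0 as the spike grew, over the same 39 arrays and with limma. Of 7920 probes, 5.01% had a negative slope past the threshold. Nfe2l1 fell by 0.35 per doubling of the amount (SE 0.11, adjusted p = 0.0319). Sox11 at spot 9342 had the same slope of -0.35 with a wider error (SE 0.12, adjusted p = 0.0472), and that call was lost when any of 27 of the 39 arrays was left out (adjusted p from 0.05 to 0.0997). The slope of Nr3c1 at spot 12586 was -0.21 (SE 0.10, adjusted p = 0.16), and without 0.75 pmol replicate 4 it was -0.30 (adjusted p = 0.0196). The call of Nfe2l1 was lost without 0.025 pmol replicate 1 (-0.30, adjusted p = 0.0758), 0.05 pmol replicate 6 (-0.31, 0.0543), 0.5 pmol replicate 2 (-0.33, 0.0507) or 0.5 pmol replicate 3 (-0.33, 0.0503). The higher probes had slopes of 0.08 (Nr3c1, adjusted p = 0.466) and 0.01 (Sox11, adjusted p = 0.933).

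The arrays also differed in ways the amounts do not describe, since a clustering of the other probes gave 6 array sets that mostly followed blocks of 3 replicates. Within the set of 21 arrays from 0.025 to 0.5 pmol, the slope of Nfe2l1 was -0.44 (limma, adjusted p = 0.0235), that of Nr3c1 at spot 12586 was -0.34 and that of Sox11 at spot 9342 was -0.23. In a set of 9 arrays of 0.05 to 0.75 pmol the slopes were -0.62, -0.45 and 0.06, in the same order of genes. In a set of 8 arrays they were -0.58, -0.21 and -0.65. The slopes of Nfe2l1 and Nr3c1 were thus negative in each set, and that of Sox11 was not, and of these 9 values only the -0.44 of Nfe2l1 passed the threshold. In the fit of the 39 arrays that adjusts for the array set, the slope of Nr3c1 at spot 12586 was -0.32 and did pass (limma, adjusted p = 0.014).

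The same sequence accession thus gave a low and a higher probe for both genes with 2 probes, and this was measured directly as the difference between probes on each array. For Nr3c1, spot 12586 minus spot 10663 was -3.92 ± 1.40 (SD) over the 39 arrays of 0.025 to 0.75 pmol, with a range of -6.64 to -0.23. It was negative on 39 of 39 arrays (two-sided permutation test, 100000 sign changes, p = 2e-05, the smallest they can give, and the same after adjustment over the 2 genes). At 0 pmol the same difference was 0.57 ± 0.58 (SD, n = 6), from -0.42 to 1.17. For Sox11, spot 9342 minus spot 8336 was -4.98 ± 1.54 (SD) over the 39 arrays, from -7.65 to -1.25 and again negative on 39 of 39 (same permutation test, p = 2e-05). At 0 pmol it was -0.90 ± 1.22 (SD, n = 6), from -2.35 to 0.31. Both unspiked ranges included 0 and overlapped those of the 39 arrays. On unspiked replicates 4 to 6 the low Sox11 probe averaged -1.65 and the higher one 0.35, against 0.36 and 0.16 on replicates 1 to 3. The tests were added after the values were seen, and the low probe was chosen by its 2 pmol difference. Sign changes also treat the 39 arrays as independent, while the array sets mostly followed blocks of 3 replicates. The p-values thus add nothing to the description.

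The paired spots of one probe, by contrast, read nearly alike. The median absolute difference between them was 0.16 for the low Nr3c1 probe, 0.12 for the low Sox11 probe and 0.08 for Nfe2l1. It was 0.14 and 0.13 for the higher probes. Differences above 1 occurred on 1 to 3 of the 49 to 51 arrays with both spots, and the largest was 4.92, at the low Nr3c1 probe.

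The probes printed around each low probe did not all share its ratio. Around the low Sox11 probe, Ctnnd2, Tmem179, Ppp1r12a and Ranbp17 had differences at 2 pmol of 0.22, 0.37, -0.26 and 0.06. Around Nfe2l1, Stag1 stood at 0.35, Tubgcp6 at 2.58, Rnf8 at -0.84 and an unnamed probe at -2.04. The low Nr3c1 probe had Ctse, the aspartic protease cathepsin E, directly above it at -5.91, an unnamed probe below it at -2.63 and another to its right at 0.83. Around the higher Sox11 probe lay E2f4, a cell cycle factor, at 7.27, and Mrpl55, a mitochondrial ribosomal protein, at -3.05. Its other neighbours were Fam151a at -0.10 and an unnamed probe at -0.31. Around the higher Nr3c1 probe, Denn2b stood at 0.62, Fbxw8 at -0.29, Cdk14 at -0.19 and an unnamed probe at 1.05.

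Among the whole array, 782 sequence accessions had 2 or more probes, and in 12 of them the lowest probe was at or below -4 at 2 pmol against 0 pmol. In 9 of these 12, Nr3c1 and Sox11 included, the next probe lay within 1 of 0. The other 7 were Papola (-6.98 and -0.32), Ssbp2 (-5.62 and 0.02), Eif4a2 (-4.76 and -0.52), Rtn4 (-4.65 and 0.22), Sft2d1 (-4.63 and 0.36), Prom1 (-4.34 and 0.71) and Tenm4 (-4.25 and -0.57). Fem1c, a ubiquitin ligase receptor, was the 1 case in which both probes were low (-7.24 and -6.90). The remaining 2 were in neither class: Smpd4 (-4.94 and -3.00) and Syncrip, whose next probe was positive (-4.13 and 1.89). The second-lowest probe lay within 1 of 0 for most of the 782 accessions, so such a next probe is not particular to these 12. Over all probes, 53 lay at or below -4. These limits and genes were chosen after the values were seen, and the counts are a description of 12 sequence accessions without a test.

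**Figure D3:**
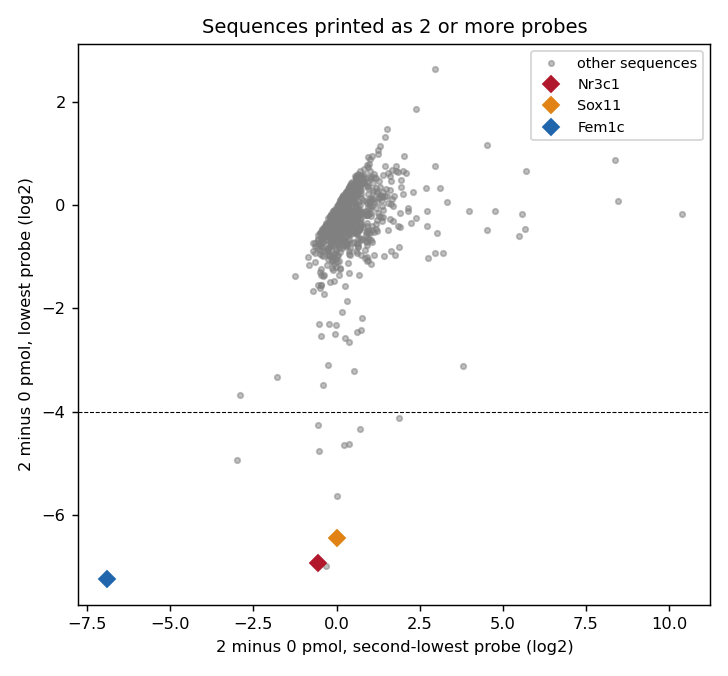
Difference between 2 and 0 pmol (log2) of the lowest probe (vertical axis) against that of the second-lowest probe (horizontal axis) for the 782 sequence accessions with 2 or more probes. Below the dashed line at -4, Nr3c1 and Sox11 lie at -0.57 and 0.00 on the horizontal axis, and Fem1c lies at -6.90.

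The low probes of the 3 genes were positively correlated over the spiked arrays. Nr3c1 (spot 12586) and Nfe2l1 correlated with r = 0.79 over 44 arrays, and with r = 0.67 over the 39 arrays below 1 pmol. For Sox11 (spot 9342) and Nfe2l1 these values were 0.60 and 0.44, and for Nr3c1 and Sox11 they were 0.59 and 0.42. With each amount's mean removed they were 0.56, 0.51 and 0.37. These values include 0.75 pmol replicate 4, where all 3 low probes lay above the rest of their group. The part of that array in the correlations was not tested. The probes share their arrays and spiked amounts, so these values are descriptions. The higher Sox11 probe correlated with the low one at -0.32 over the 39 arrays, and the Nr3c1 pair at -0.24. A positive value was not limited to the low probes. The higher Nr3c1 probe and the low Sox11 probe correlated at 0.24 over the 39 arrays, and at 0.34 with each amount's mean removed. For the higher Nr3c1 probe and Nfe2l1 these values were -0.27 and -0.06.

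The named probes most like each member, by Pearson correlation over 42 to 45 spiked arrays, are given as a description. They include the arrays of 1 and 2 pmol that chose the genes, so the 2 pmol differences of the like probes follow in part from that choice. Nearest to Nfe2l1 were Rrn3, an RNA polymerase I initiation factor (r = 0.923), Ctse (0.903) and Rell1 (0.854). Nearest to the low Nr3c1 probe were Ctse (0.833), the replication and checkpoint protein Topbp1 (0.808) and Nfe2l1 (0.791). The low Sox11 probe was nearest to the spindle protein Spag5 (0.869), the RNA-binding protein Syncrip (0.802) and Topbp1 (0.786). All of these lay low themselves at 2 pmol, with differences from -6.82 (Topbp1) to -4.13 (Syncrip). The higher Nr3c1 probe was most like Fbxw8 (0.733), printed directly below it, Ep400 (0.704) and Rhoq (0.683), and the higher Sox11 probe most like Timp3 (0.69), Hdac9 (0.661) and Gtf2a1 (0.651). The differences of these 6 at 2 pmol ran from -0.46 to 0.13. Over the arrays of 0.025 to 0.75 pmol alone, these 15 correlations lay between 0.629 (Hdac9) and 0.875 (Rrn3).

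Genes that act with the 3 factors were tested at 2 against 0 pmol as lists of related genes, which were not chosen for extreme differences and so are not a comparison group for the 3 genes. Over all 7917 probes, limma called 15.6% between 2 and 0 pmol in either direction, with an unadjusted p under 0.05 for 27.7%, and their median difference was 0.04. Of 77 genes listed as glucocorticoid receptor partners, targets and other nuclear receptors, 21 were measured with 25 probes. Of these, 2 (8%) were called, 1 in each direction, 6 (24%) had an unadjusted p under 0.05, and their median was 0.16. Without centring 11 were called, where 36.2% of all probes were, and with the first spots alone 1 was called, where 13.1% of all probes were. Tsc22d3, a hormone-induced leucine zipper gene and a standard target of the receptor, rose from -0.01 to 1.42 (difference 1.43, SE 0.36, limma adjusted p = 0.00291). One probe of the coactivator Ncoa2 fell from 0.77 to -0.17 (difference -0.94, limma adjusted p = 0.021), and its other probes stood at 1.11 and 0.37 without a call. Centring removed a shift of 1.37 between the array medians of 2 and 0 pmol, which is larger than this difference, so the sign of the Ncoa2 call depends on it.

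Of 19 other Sox genes, Sox6, Sox7 and Sox17 were measured with 5 probes. Their differences ran from -0.48 to 0.04 with a median of -0.11, and 0 were called by limma, with 0 at an unadjusted p under 0.05. Of 45 genes listed with Nfe2l1 as bZIP factors, Maf partners, its processing enzymes and oxidative stress targets, 9 were measured with 15 probes. Only 1 of these (6.67%) was called: a probe of Btrc, a ubiquitin ligase subunit that binds such factors, rose by 1.71 to 0.71 (SE 0.38, limma adjusted p = 0.000875). Its other probes stood at 0.74, 0.42 and 0.05. In the list, 4 probes (26.7%) had an unadjusted p under 0.05, and the median was 0.14. Without centring 5 were called, where 36.2% of all probes were, and 4 with the arrays scaled to one spread, where 20.2% were. Of 49 proteasome genes, 7 were measured with 8 probes, from -0.61 to 0.68 with a median of 0.06. Limma called 0 of these, and 2 (25%) had an unadjusted p under 0.05. Without centring and with the arrays scaled, 2 were called. The closest relatives Nr3c2, Sox4, Sox12, Nfe2, Nfe2l2 and Nfe2l3 were not among the probes with 1 symbol.

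**Figure D4:**
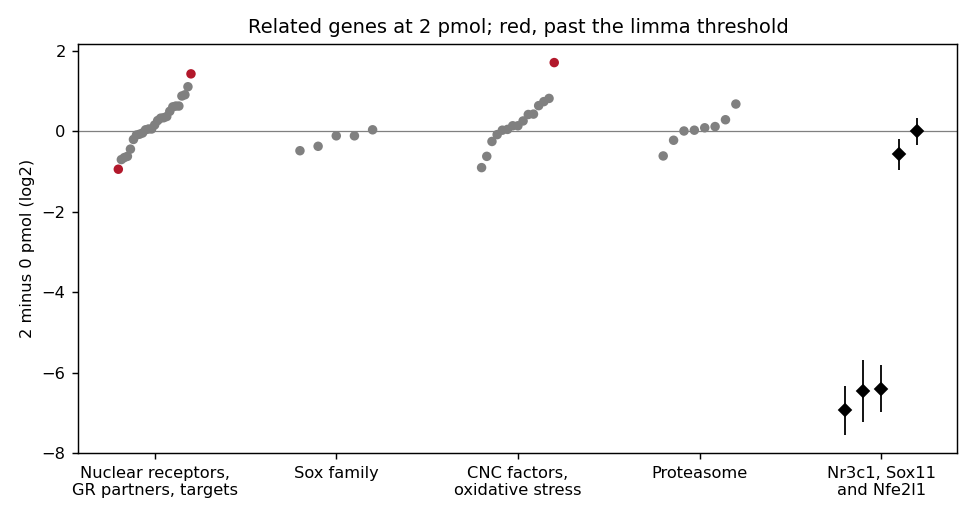
Difference between 2 and 0 pmol (log2, vertical axis) of every measured probe in the 4 gene lists (circles, red where limma passed the threshold) and of the 5 probes of Nr3c1, Sox11 and Nfe2l1 (diamonds, bars of 1 SE). The list probes lie between -0.94 and 1.71. The 3 low probes, at -6.93, -6.45 and -6.39, were chosen for this difference.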

How the data were processed

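The values deposited by the authors are log2 ratios, 1 for each spot of an array, and no intensities were used. Background correction, normalization and the numerator channel are not given in the sources used here, and the log base was read from the values. Array medians ran from -3.33 to 0.971, so each array was centred on the median of its non-control spots, and the pair of spots 22 positions apart was averaged. The value 16.61, an upper limit seen 1074 times, was treated as missing. The 528 probes at 11 recurring control positions were left out. Symbols are those of the platform, updated with RefSeq GRCm38.p6 (10766 spots matched).

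The probes were fitted in R 4.3.3 by means of limma 3.58.1, after reading with data.table (version 1.17.8), using 1 mean per amount, empirical Bayes, threshold 0.05 after Benjamini-Hochberg adjustment over all probes, at least 2 measured arrays per group and 10 for a slope. The lists were tested at 2 against 0 pmol in 1 fit of 51 arrays. All differences from 0 pmol share the same 6 arrays. Every probe of the 3 genes is named, whatever its value, with the 3 most like it (measured on at least 40 spiked arrays), the probes printed next to it and up to 4 called probes per list. Members and lists were chosen with earlier results of these data known. The test of the difference between probes was added after the values were seen. No 2 arrays were duplicates: the highest correlation between arrays was 0.939. Scripts were tested on simulated data, and Python 3.11.15 with scipy 1.17.1, pandas 2.3.3 and matplotlib 3.10.9 was used.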

Additional observations from a re-analysis of the deposited data

Results flagged for a closer look

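Within groups of 6 arrays, 7 values stood apart from the other arrays of their amount by Dixon's test, in 30 groups tested, where chance gives about 1 in 20. All 3 low probes did so on 0.75 pmol replicate 4: Nr3c1 (spot 12586) at -1.22 against -5.55 to -4.13 on the other arrays, Sox11 (spot 9342) at -2.07 against -6.90 to -5.66, and Nfe2l1 at -0.60 against -2.65 to -2.24. This is the array with the lowest correlation of paired spots, 0.198, and its part in these values was not tested.

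The other 4 were spread over arrays. Nr3c1 (spot 12586) read -6.45 on 0.25 pmol replicate 4, with the others from -4.73 to -3.80. Sox11 (spot 9342) read -3.19 on 0.25 pmol replicate 5, with the others from -6.64 to -5.88, and -4.13 on 0.1 pmol replicate 2, with the others from -5.37 to -4.94. The higher Sox11 probe (spot 8336) read 1.26 on 0.5 pmol replicate 3, with the others from -0.28 to 0.06.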

How the results depend on the processing

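The means of the 3 low probes over 0.025 to 0.75 pmol kept their sign and call in 48 of 48 alternatives each. These alternatives fit none of the arrays of 0, 1 and 2 pmol, though the array sets came from a clustering of all 51 arrays. The means ran from -5.58 to -3.26 for Nr3c1, from -6.16 to -4.06 for Sox11 and from -3.82 to -1.75 for Nfe2l1. Of the alternatives for each mean and each slope, 39 only left out 1 array and are near repeats of the main fit. The slopes were less stable, and the cause was not tested. That of Sox11 (spot 9342) passed in 16 of 52 such alternatives, that of Nfe2l1 in 44 of 52 and that of Nr3c1 (spot 12586) in 3 of 52. Leaving out single arrays gave -0.45 to -0.30, -0.44 to -0.30 and -0.30 to -0.16, and -0.02 to 0.03 for the higher Sox11 probe. Slopes of Sox11 that missed the threshold were -0.35 with the first spot, the second spot, the upper limit kept or robust moderation, -0.27 without centring, -0.23, 0.06 and -0.65 within the 3 array sets, and -0.37 with replicate number as a block. Replicate numbers did not pair the arrays: deviations of same-numbered arrays correlated with a median of 0.005. The block changed no other call of the 3 genes and gave 3 calls in place of 2 in the receptor list, where 13.3% of all probes were called. Slopes of Nfe2l1 that missed it were -0.27 without centring, -0.25 with replicates 1 to 3 only, and -0.62 and -0.58 within array sets. Slopes of Nr3c1 that passed were -0.45 with arrays scaled, -0.30 without 0.75 pmol replicate 4 and -0.32 with the array set as a covariate. With the 1 pmol arrays added the slope was -0.32, which is no test, since the gene was chosen on them. The higher probes changed sign as follows: the slope of Sox11 (spot 8336) was -0.02 with first spots, -0.05 with the array set as a covariate and -0.09 and -0.04 within sets. The slope of Nr3c1 (spot 10663) was -0.05 with replicates 1 to 3 only and 0.16, past the threshold, within 1 set. Its mean minus that of the unspiked arrays, which took part in the choice, was 0.05, given without a test. Centring removed a mean array median of -1.31 over the 8 amounts. Without centring, the mean of Sox11 (spot 8336) passed at -1.40, and the higher probes were called at 6 (Nr3c1) and 5 (Sox11) amounts. With the array set as a covariate, Nr3c1 (spot 10663) was called at 2 amounts and Nfe2l1 at 5. Calls in the receptor, oxidative stress and proteasome lists were 11, 5 and 2 without centring, where 36.2% of all probes were called. With scaling (20.2% of all), the last 2 lists had 4 and 2 calls. First spots (13.1%) gave 1 for the receptor list and 2 for oxidative stress, and probes measured on all arrays (25.5%) gave 1, 2 and 1. Leaving out arrays gave 1 to 3, 1 to 2 and 0 to 1, while the share of all probes called ran from 9.68% to 16.4%. The receptor list had 1 call without 2 pmol replicate 1 (10.9% of all probes) or 3 (9.68%). The oxidative stress list had 2 without 0 pmol replicate 1 (16.1%), 2 (16.4%) or 5 (13.6%). The proteasome list had 1 without 0 pmol replicate 1 (16.1%) or 2 pmol replicate 2 (12.9%). List calls with the array set as a covariate were not run, since no spiked array shares a set with the unspiked ones. The number of arrays limits every value, and 1 pmol rests on 2 arrays for Nr3c1 and Sox11.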
